A study of Homo sapiens with 5 samples.

Results

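The dystrophin-glycoprotein complex was followed here through 9 genes chosen by symbol: DMD, UTRN, DAG1, SGCA, SGCB, SGCD, SGCE, DTNA and SNTB1. All 9 had a row among the 13822 genes of the table, and all 9 passed the filter on low values (a mean of at least 0.1 FPKM over the 5 libraries), as did 13681 genes in total. FPKM is the number of fragments divided by exon length in kilobases and scaled to the size of the library, so it is a level per length.

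The data came from RH4, an established human cell line of alveolar rhabdomyosarcoma, a childhood tumour with features of skeletal muscle. A control group of 3 libraries (si-SCR) was transfected with a scrambled siRNA, and a group of 2 libraries (si-circVAMP3) received an siRNA directed at the back-splice junction of circVAMP3, the circular RNA made from the VAMP3 gene. Both groups were given 30 nM siRNA, followed by fresh medium at 24 h, and RNA came from cells taken 24 h after that change. As transfection reagent the study's methods name either Dharmafect-1 or Lipofectamine RNAiMAX. The libraries were described as biological replicates of 1 cell line, and their poly-A selected RNA was sequenced.

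In skeletal muscle, dystrophin binds actin filaments with its amino-terminal end and the transmembrane protein dystroglycan near its carboxy-terminal end, while dystroglycan binds laminin in the basement membrane. The sarcoglycans form a transmembrane subcomplex beside dystroglycan, and dystrobrevin and the syntrophins gather on the cytoplasmic side as a scaffold for signalling proteins. Loss of dystrophin, or of alpha-, beta- or delta-sarcoglycan, causes muscular dystrophy.

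The siRNA is shown because every comparison below rests on it. It is written 5′ to 3′ in lower case, as listed for the 21 bases of si-circVAMP3. Whether it is the guide or the passenger strand is not given in the sources used here.
si-circVAMP3: caucaucggugguggacauuu

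Poly-A selected libraries do not measure a circular RNA, so only the linear host gene could be read. VAMP3 stood at 36.4, 35.4 and 37.4 FPKM in the si-SCR libraries and at 29.4 and 30.2 FPKM in the si-circVAMP3 libraries. Both si-circVAMP3 libraries lay below all 3 controls. The log2 fold change, on the scale of log2(FPKM + 0.1), was −0.29 (SE 0.04, adjusted p = 0.00507 by limma with Benjamini-Hochberg adjustment). Without si-circVAMP3 replicate 1 the adjusted p was 0.0525, above the threshold of 0.05.

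Fragments recovered from the FPKM values numbered 26941970, 25532699 and 25436129 in the si-SCR libraries and 18980856 and 29371147 in the si-circVAMP3 libraries. The shallowest and the deepest library therefore both belonged to si-circVAMP3. Across genes, si-SCR replicates 1 and 2 differed with an SD of 0.186 on the log2 scale, whereas si-SCR replicate 3 differed from them with SDs of 0.26 and 0.233, and the si-circVAMP3 libraries differed from each other with an SD of 0.202. Libraries of different groups differed with SDs from 0.338 to 0.378. Replicate 3 of si-SCR thus stood somewhat apart from the other controls, and without it 5 members were called, in a fit that called 29.3% of all genes.

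Of the 9 members, 5 were called at an adjusted p below 0.05, namely DAG1, SGCB, SGCD, DTNA and SNTB1, and all 5 fell in si-circVAMP3. Over all tested genes 27.5% were called, with 14.7% lower and 12.8% higher in si-circVAMP3. None of the members was called higher in this fit, while DMD was called higher with voom on recovered fragments. Adding the fold cutoff of 0.58 on the log2 scale left 1 member, SGCD, against 5.8% of all tested genes. With a pseudocount of 1 FPKM, 334 of 13681 genes were called past the cutoff, and SGCD was not among them (−0.345). SGCD was also short of the cutoff without si-circVAMP3 replicate 2 (−0.55). The groups did not overlap for 7 of the 9 members, against 56.6% of all tested genes. The median log2 fold change of the members was −0.39, and that of all tested genes was 0.003. The members' median was smaller in size with a pseudocount of 1 FPKM (−0.26). It was −0.24 at a mean of at least 1 FPKM, where SGCD was not tested. Without si-circVAMP3 replicate 2, 3 members were called (DAG1, SGCB and SNTB1), against 9.26% of all genes tested in that fit. Because these are bulk samples, less of an RNA per cell and fewer cells that carry it cannot be told apart.

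**Figure D1:**
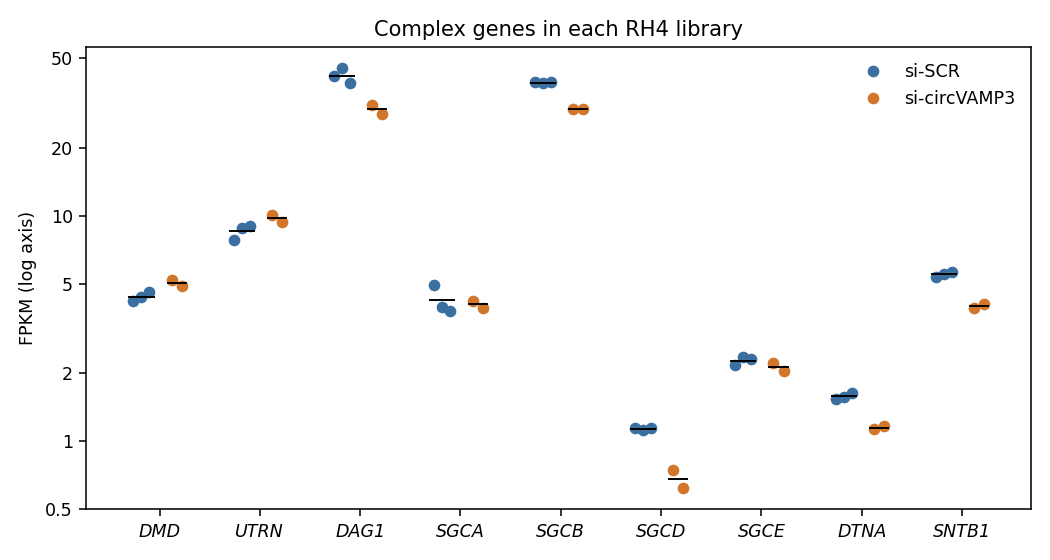
FPKM of the 9 genes (log axis) in each of the 3 si-SCR (blue) and 2 si-circVAMP3 (orange) libraries, with 1 point per library and a black line at each group mean. The groups are separate for 7 of the 9 genes, with si-circVAMP3 lower for DAG1, SGCB, SGCD, DTNA and SNTB1 and higher for DMD and UTRN.

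Promoter sequences from the RefSeq table, build GRCh38.p14, were matched by symbol for 6 of the 9 members: DMD, UTRN, DAG1, SGCB, SGCD and DTNA. SGCA, SGCE and SNTB1 had no entry. For the 4 called members with an entry and for DMD as an uncalled member, the 150 bases before the start of the canonical transcript are printed on the gene's own strand, since these are the members that moved together and the gene that names the complex. Capitals mark CANNTG, the E-box that myogenic bHLH factors such as MYOD1 and MYOG can bind, and GGGCGG, the GC box, each searched on both strands.
SGCB, chr4:52038300-52038449 (-): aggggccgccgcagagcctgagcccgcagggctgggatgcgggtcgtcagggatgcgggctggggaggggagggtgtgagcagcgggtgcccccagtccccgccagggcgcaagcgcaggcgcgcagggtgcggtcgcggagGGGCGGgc
DAG1, chr3:49470117-49470266 (+): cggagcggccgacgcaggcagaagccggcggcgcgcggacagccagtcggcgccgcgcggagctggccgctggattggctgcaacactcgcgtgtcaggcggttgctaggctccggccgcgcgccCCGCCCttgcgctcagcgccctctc
SGCD, chr5:156327014-156327163 (+): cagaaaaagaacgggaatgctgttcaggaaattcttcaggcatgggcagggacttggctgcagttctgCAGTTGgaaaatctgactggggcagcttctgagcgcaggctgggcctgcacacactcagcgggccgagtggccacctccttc
DTNA, chr18:34710148-34710297 (+): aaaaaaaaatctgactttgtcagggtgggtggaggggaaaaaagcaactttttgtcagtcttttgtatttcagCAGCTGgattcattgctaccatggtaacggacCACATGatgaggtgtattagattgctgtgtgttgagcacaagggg
DMD, chrX:33211550-33211699 (-): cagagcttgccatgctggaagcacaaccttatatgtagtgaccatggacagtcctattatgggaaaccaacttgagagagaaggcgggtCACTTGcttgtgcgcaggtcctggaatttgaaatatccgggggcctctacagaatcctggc

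SGCB and DAG1, the members with the highest FPKM, had GC-rich windows (78.7% and 76.7%) with 1 GC box each and no CANNTG. In contrast, the windows of SGCD and DTNA had 57.3% and 42.7% GC, no GC box, and 1 and 2 CANNTG matches. The DMD window had 50.7% GC and 1 CANNTG, and the UTRN window, not printed, had 72.0% GC and neither motif. Among 35116 windows of the same length, 44.2% held CANNTG, 36.8% held GGGCGG, and the median GC content was 60%. Neither motif was thus found in the windows of all 4 called members, and a match is a string of letters, not a bound site.

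Dystrophin and utrophin, the long cytoplasmic proteins that tie actin to dystroglycan, had log2 fold changes above 0, unlike the other 7 members. Neither was called by limma on log2(FPKM + 0.1). DMD, which encodes dystrophin (ENSG00000198947, chrX:31097677-33339609, minus strand, GRCh38, GENCODE release 44), measured 4.20, 4.38 and 4.58 FPKM in si-SCR and 5.17 and 4.89 FPKM in si-circVAMP3. Both si-circVAMP3 libraries lay above all controls, and the group means were 4.39 ± 0.190 (SD, n = 3) and 5.03 ± 0.197 FPKM (SD, n = 2). The log2 fold change was 0.19 (SE 0.07, 95% interval 0.025 to 0.362) with an adjusted p of 0.0858, so DMD was not called, although the interval, which is not adjusted over genes, lay above 0. With voom on recovered fragments, an alternative chosen after seeing the data, DMD was called higher (0.188, adjusted p = 0.0272). The gene spans 2241.9 kb and has 38 annotated coding transcripts, and its FPKM divides by 18.9 kb of exon, so a level summed over long and short dystrophin transcripts is what was measured.

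UTRN (ENSG00000152818, chr6:144285335-144853034, plus strand) encodes utrophin, the autosomal relative of dystrophin. It measured 7.81, 8.84 and 8.98 FPKM in si-SCR and 10.1 and 9.39 FPKM in si-circVAMP3. The si-circVAMP3 libraries were again the higher ones, without overlap, by a distance smaller than the spread among the controls. Its log2 fold change was 0.19 (SE 0.08, 95% interval 0.006 to 0.376, adjusted p = 0.114), which was not called either. The ratio of UTRN to DMD was 1.86, 2.02 and 1.96 in si-SCR and 1.96 and 1.92 in si-circVAMP3, and the groups overlapped. The difference in log2 ratio was −0.004 (two-sided exact permutation p = 1.0, taken as the doubled one-sided p). In a design of 10 arrangements, no such doubled p can lie below 0.2.

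DAG1 encodes dystroglycan, which is cleaved into the laminin-binding alpha subunit and the transmembrane beta subunit that holds dystrophin. The gene (ENSG00000173402, chr3:49468713-49535618, plus strand) measured 41.5, 45.1 and 38.8 FPKM in si-SCR and 31.0 and 28.2 FPKM in si-circVAMP3. Every si-circVAMP3 value lay below every control value, and 7.75 FPKM separated the lowest control from the highest si-circVAMP3 library. DAG1 fell, with a log2 fold change of −0.49 (SE 0.07, 95% interval −0.667 to −0.318, adjusted p = 0.00488), on 3978 to 7793 fragments per library.

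The ratio of DAG1 to DMD, a comparison added after the values were seen, was 9.87, 10.3 and 8.46 in si-SCR. In si-circVAMP3 it was 6.0 and 5.78, below all controls. The log2 difference was −0.69. Its two-sided exact permutation p was 0.2, the smallest that the design allows, so the ratio is given as a description.

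**Figure D2:**
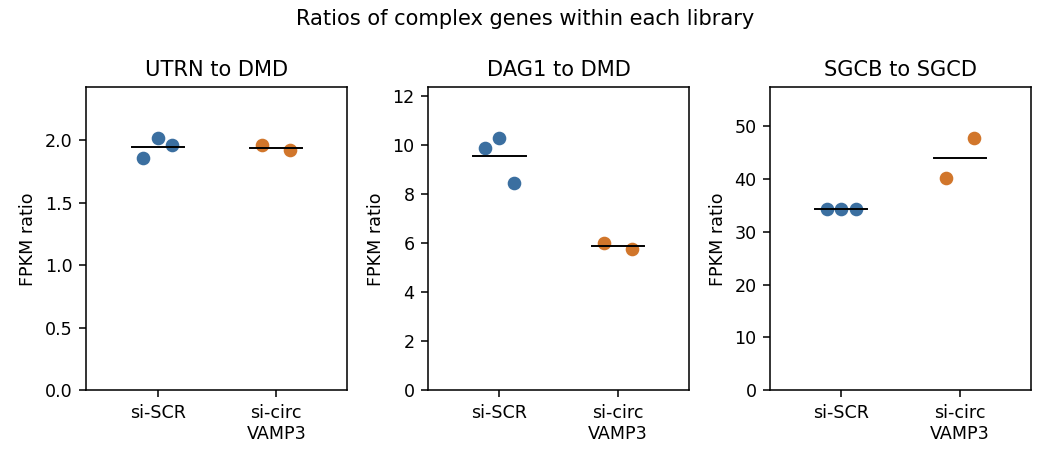
Ratios of FPKM (vertical axis, from 0) within each library for UTRN to DMD, DAG1 to DMD and SGCB to SGCD, with 1 point per library, si-SCR in blue, si-circVAMP3 in orange and a black line at the mean. The UTRN to DMD ratio lies between 1.86 and 2.02 in all 5 libraries, while DAG1 to DMD lies at 8.46 or above in si-SCR and at 6.0 or below in si-circVAMP3.

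The 4 sarcoglycan members split into 2 that fell and 2 that were not called. SGCB (ENSG00000163069, chr4:52020706-52038299, minus strand) encodes beta-sarcoglycan, part of the core of the subcomplex in muscle. Its levels were 39.1, 38.6 and 39.1 FPKM in si-SCR and 29.9 and 29.6 FPKM in si-circVAMP3. The values within each group lay close together, with SDs of 0.278 and 0.170 FPKM around means of 38.9 and 29.7 FPKM, and the groups were 8.75 FPKM apart. SGCB fell by 0.39 on the log2 scale (SE 0.04, 95% interval −0.477 to −0.297, adjusted p = 0.00121), the lowest p among the members.

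SGCD (ENSG00000170624, chr5:155870344-156767788, plus strand) encodes delta-sarcoglycan, which pairs closely with beta-sarcoglycan in the subcomplex. It was the least abundant member, at 1.14, 1.12 and 1.14 FPKM in si-SCR and 0.744 and 0.620 FPKM in si-circVAMP3. The controls were nearly equal and both si-circVAMP3 libraries lay clearly below them. SGCD fell, with a log2 fold change of −0.66 (SE 0.12, 95% interval −0.942 to −0.387, adjusted p = 0.00832), the largest of the 9 members at a pseudocount of 0.1 FPKM. Its mean fell by 39.9%. The fragments behind these values were 322, 297 and 302 in si-SCR and 146 and 189 in si-circVAMP3. Without si-circVAMP3 replicate 2 the adjusted p was 0.0655 and the log2 fold change −0.55, and with a pseudocount of 1 FPKM the log2 fold change was −0.34, with the call kept but smaller in size than those of DAG1 (−0.48), SNTB1 (−0.38) and SGCB (−0.38). In both cases SGCD was no longer past the fold cutoff of 0.58.

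The ratio of SGCB to SGCD, also added after the values were seen, was 34.2, 34.4 and 34.2 in si-SCR and 40.1 and 47.8 in si-circVAMP3. The control ratios were nearly identical and both si-circVAMP3 ratios were higher, though these were farther apart. The log2 difference was 0.35, again a description, with a two-sided exact permutation p of 0.2, the smallest that the design allows.

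SGCA (ENSG00000108823, chr17:50164214-50175928, plus strand) encodes alpha-sarcoglycan, the sarcoglycan most restricted to striated muscle. It measured 4.96, 3.94 and 3.80 FPKM in si-SCR and 4.21 and 3.91 FPKM in si-circVAMP3. The groups overlapped, and si-SCR replicate 1 was the highest of the 5 libraries. The log2 fold change was −0.05 (95% interval −0.340 to 0.242, adjusted p = 0.796), and it was 0.07 without si-SCR replicate 1. SGCE (ENSG00000127990, chr7:94524204-94656572, minus strand) encodes epsilon-sarcoglycan, a relative of alpha-sarcoglycan that is found in many tissues. Its levels were 2.18, 2.36 and 2.31 FPKM in si-SCR and 2.23 and 2.05 FPKM in si-circVAMP3, again with overlap. Its log2 fold change was −0.09 (95% interval −0.303 to 0.117, adjusted p = 0.474).

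Both members of the cytoplasmic scaffold fell. DTNA (ENSG00000134769, chr18:34493291-34891844, plus strand, with 54 annotated coding transcripts) encodes alpha-dystrobrevin, a dystrophin-related protein that binds the syntrophins. It measured 1.55, 1.57 and 1.63 FPKM in si-SCR and 1.14 and 1.17 FPKM in si-circVAMP3. Both si-circVAMP3 libraries lay below the controls, by more than the spread within either group. DTNA fell with a log2 fold change of −0.43 (SE 0.09, 95% interval −0.649 to −0.207, adjusted p = 0.0170), on 266 to 522 fragments per library. The call was lost in 3 of the 5 fits that each left out 1 library, where the adjusted p was 0.0609 without si-SCR replicate 2, 0.102 without si-circVAMP3 replicate 1 and 0.0844 without si-circVAMP3 replicate 2. The call of DTNA was also lost in the limma fit with a replicate block (−0.41, adjusted p = 0.0585). With a pseudocount of 1 FPKM the log2 fold change was −0.26, with the call kept.

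SNTB1 (ENSG00000172164, chr8:120535745-120813273, minus strand) encodes beta-1-syntrophin, an adaptor that binds dystrophin and dystrobrevin and carries a PDZ domain for signalling partners. Its levels were 5.35, 5.53 and 5.62 FPKM in si-SCR and 3.91 and 4.08 FPKM in si-circVAMP3. The groups were 1.27 FPKM apart, far more than the SDs of 0.137 and 0.125 FPKM within them. SNTB1 fell with a log2 fold change of −0.45 (SE 0.07, 95% interval −0.606 to −0.298, adjusted p = 0.00421).

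**Figure D3:**
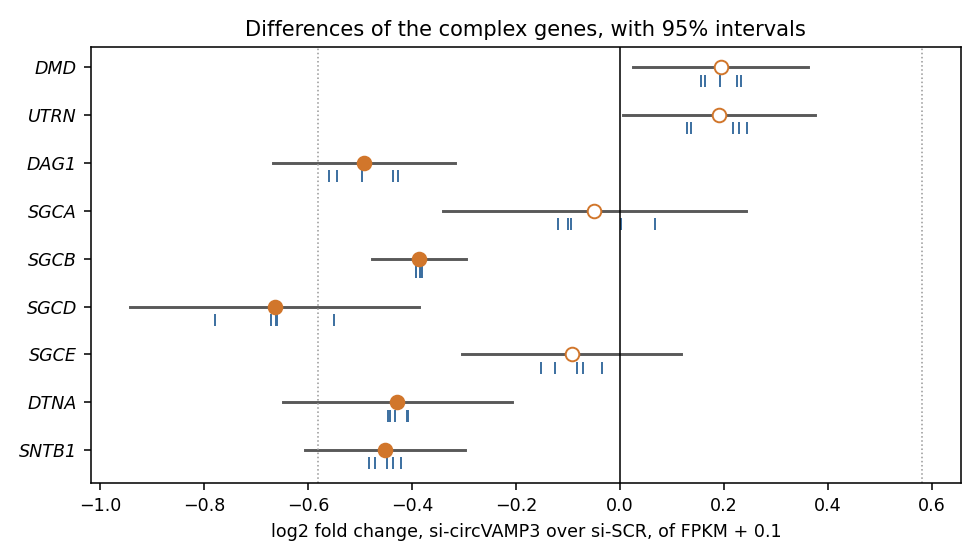
Log2 fold change of FPKM + 0.1, si-circVAMP3 over si-SCR (horizontal axis), for the 9 genes with 95% intervals as grey lines, filled points where the adjusted p was below 0.05, blue ticks for the value with each library left out in turn, and dotted lines at a size of 0.58 in either direction. The called genes lie between −0.66 (SGCD) and −0.39 (SGCB), and DMD and UTRN both lie at 0.19.

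The order of the mean levels changed little between the groups. In si-SCR it ran DAG1 (41.8 FPKM), SGCB (38.9), UTRN (8.54), SNTB1 (5.50), DMD (4.39), SGCA (4.23), SGCE (2.28), DTNA (1.59) and SGCD (1.14). The library values of DAG1 and SGCB overlapped, as did those of DMD and SGCA, so neither pair can be ranked by FPKM. The order is one of levels per length, and the exon length behind the FPKM ran from 2.4 kb for SGCA to 20.9 kb for SGCE. In si-SCR replicate 1, SGCE had 1214 fragments, more than SNTB1 (970) and SGCA (324), which stand above it in this order. In si-circVAMP3 the order was SGCB (29.7 FPKM), DAG1 (29.6), UTRN (9.76), DMD (5.03), SGCA (4.06), SNTB1 (4.0), SGCE (2.14), DTNA (1.15) and SGCD (0.682). Here SGCB overlapped with DAG1 and SGCA with SNTB1, and SNTB1 had moved from above DMD to below it.

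The genes most like SGCB, by Pearson correlation of log2(FPKM + 0.1) over the 5 libraries, were TWF1 (r = 0.9998), CEP68 (0.9997), TRIM44 (0.9997), SH3BP4 (0.9995) and NAB1 (0.9995). Their log2 fold changes were −1.74, −0.36, −0.76, −0.60 and −0.91. Of 11093 genes with a mean of at least 1 FPKM, 341 had an r above 0.99, and the points share the 5 libraries and their 2 groups.

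Of 9 further subunits of the complex, 7 were tested, 2 fell and none rose, with a median log2 fold change of −0.20. The share called, 28.6%, was near the 27.5% of all tested genes. SSPN encodes sarcospan, the tetraspanin-like protein that sits with the sarcoglycans, and it measured 0.456, 0.469 and 0.417 FPKM in si-SCR and 0.127 and 0.183 FPKM in si-circVAMP3. Both si-circVAMP3 libraries lay far below the controls, and SSPN fell with a log2 fold change of −1.11 (SE 0.16, adjusted p = 0.00415) on 16 to 83 fragments per library. SNTG1, which encodes gamma-1-syntrophin, had a log2 fold change of −0.60 (adjusted p = 0.0331) from a mean of 0.305 to 0.168 FPKM, and of the 5 fits that each left out 1 library only that without si-SCR replicate 3 called it (highest adjusted p = 0.173).

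Genes of dystroglycan glycosylation numbered 18, of which 17 were tested, 3 fell and none rose (17.6% called, against 27.5% of all tested genes), with a median of −0.08. POMGNT1, the transferase that adds N-acetylglucosamine to O-mannose, measured 15.3, 16.0 and 16.0 FPKM in si-SCR and 11.3 and 10.2 FPKM in si-circVAMP3 and fell by 0.55 on the log2 scale (adjusted p = 0.00170). GMPPB, which makes GDP-mannose, had a log2 fold change of −0.38 (adjusted p = 0.00820). The GMPPB call was lost without si-circVAMP3 replicate 2 (adjusted p = 0.0702).

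Among the extracellular ligands of dystroglycan, 7 of 11 genes were tested, and only LAMC1, the laminin gamma-1 chain, was called. It was at −0.17 (adjusted p = 0.0435), and of the 5 fits that each left out 1 library only that without si-SCR replicate 3 called it (highest adjusted p = 0.256). Its call was also lost with median centring (0.0679) and with no trend in the variance model (0.111). The list's median was 0.04, and 14.3% of it was called, against 27.5% of all tested genes. The cytoplasmic partners gave 4 lower and 3 higher calls among 16 tested genes of 17 (43.8%, against 27.5% of all tested genes, of which 14.7% were lower and 12.8% higher), with a median of −0.01. The lower ones were SYNC (−0.78, adjusted p = 0.00413), which encodes the dystrobrevin-binding filament protein syncoilin, ANK2 (−0.51, adjusted p = 0.00215), the filamin gene FLNC (−0.46, adjusted p = 0.0340) and the kinase gene CAMK2D (−0.22, adjusted p = 0.0498). KRT8 (0.99, adjusted p = 0.00706) and MARK2 (0.40, adjusted p = 0.00865) rose. The remaining higher call, GRB2, was outside the naming rule and was lost without si-SCR replicate 2 (adjusted p = 0.0509) or without si-circVAMP3 replicate 1 (0.0745) or 2 (0.105), and with no trend (0.0541). The call of CAMK2D was lost in all 5 fits that each left out 1 library (highest adjusted p = 0.208) and under 6 of the other alternatives, and that of FLNC in all but the fit without si-SCR replicate 3 (highest adjusted p = 0.156) and with no trend in the variance model (0.0758). MARK2 lost its call without si-circVAMP3 replicate 1 (adjusted p = 0.0741) or 2 (0.0551), and KRT8 without si-circVAMP3 replicate 1 (0.0604).

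The list of the parallel laminin receptor and membrane repair had 2 lower and 1 higher call among 9 tested genes of 12 (33.3%, near the 27.5% of all tested genes), with a median of −0.02. ITGA7, the integrin alpha-7 chain that also binds laminin at the muscle membrane, was at −0.36 (adjusted p = 0.0180). EMD, which encodes emerin of the inner nuclear membrane and not a laminin receptor, measured 34.2, 34.7 and 35.0 FPKM in si-SCR and 20.2 and 19.7 FPKM in si-circVAMP3. It fell by 0.79 on the log2 scale (adjusted p = 0.000153). DYSF, the membrane repair protein dysferlin, rose by 0.57 (adjusted p = 0.0373), and both calls were lost without si-circVAMP3 replicate 1 (adjusted p = 0.0795 for ITGA7 and 0.178 for DYSF) or 2 (0.117 and 0.136). ITGA7 also lost its call without si-SCR replicate 2 (0.0658), and DYSF without si-SCR replicate 1 (0.0658) or with no trend in the variance model (0.0634).

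**Figure D4:**
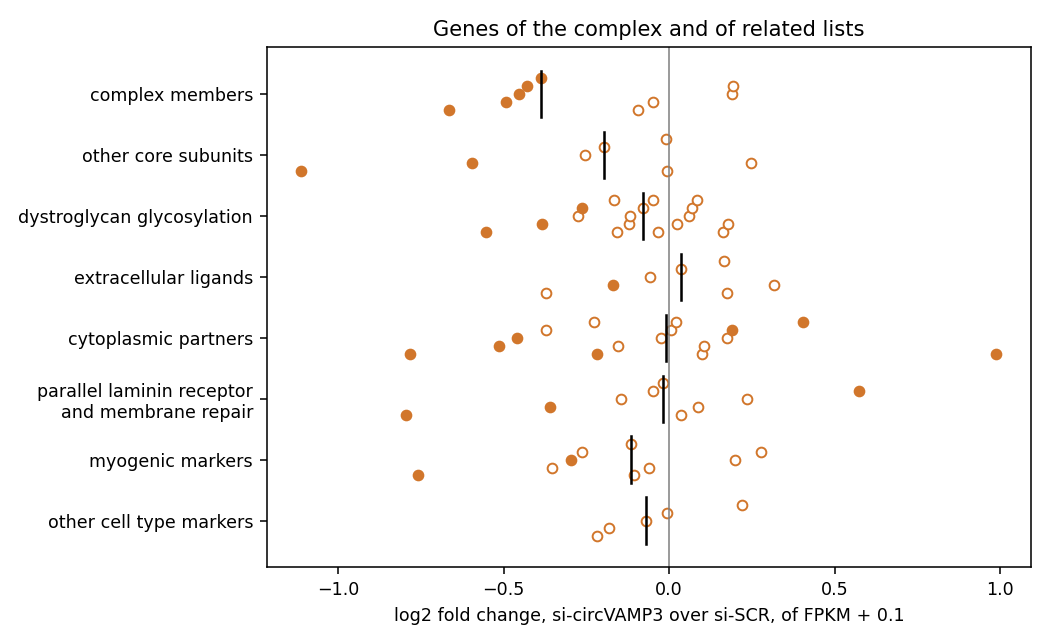
Log2 fold change of FPKM + 0.1, si-circVAMP3 over si-SCR (horizontal axis), of each tested gene of the 9 members and of 7 related lists (vertical axis), with filled points where the adjusted p was below 0.05 and a black line at each list's median. The members' median is −0.39, and the medians of the other lists lie between −0.20 and 0.04.

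Myogenic markers were checked because members of the complex are muscle genes. Of 12, 9 were tested, 2 fell and none rose (22.2%, against 27.5% of all tested genes), with a median of −0.12. Their summed level was 1006, 989 and 840 FPKM in si-SCR and 808 and 824 FPKM in si-circVAMP3. MYOG, the transcription factor of terminal muscle differentiation, measured 175, 179 and 149 FPKM in si-SCR and 101 and 96.6 FPKM in si-circVAMP3 and fell by 0.76 on the log2 scale (adjusted p = 0.00159). NCAM1 was at −0.29 (adjusted p = 0.0105), with its call lost without si-circVAMP3 replicate 1 (0.0690) or 2 (0.0777). Without si-SCR replicate 3, in which the summed level was the lowest of the controls, 5 markers were called lower, against 29.3% of all genes called in that fit. Without si-circVAMP3 replicate 1 or 2, 1 marker was called, against 9.34% and 9.26% of all genes. MYF5, MYF6 and CKM had no row in the table. MYOD1 was at 115, 105 and 84.3 FPKM in si-SCR and 106 and 127 FPKM in si-circVAMP3, with overlap and a log2 fold change of 0.20 (95% interval −0.125 to 0.522, adjusted p = 0.321), and MYMK was at 0.28 (adjusted p = 0.259). MYOD1 and MYMK, outside the naming rule, are given because they lay on the other side of 0 from MYOG. The part of these genes in the members' change was not tested.

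Markers of other cell types were tested for 5 of 18 genes, and limma on log2(FPKM + 0.1) called none of them at an adjusted p below 0.05, with COL3A1 the only one at an unadjusted p below 0.05. Their summed level was 35.6, 32.9 and 33.4 FPKM in si-SCR and 31.3 and 28.7 FPKM in si-circVAMP3, almost all of it from COL3A1. COL3A1 measured 33.6, 31.1 and 31.5 FPKM in si-SCR and 29.5 and 27.1 FPKM in si-circVAMP3 (log2 fold change −0.18, adjusted p = 0.0538). It was called lower with voom on recovered fragments (−0.20, adjusted p = 0.0261), and its part in the members' change was not tested. PDGFRA and DCN stayed below 1 FPKM in all 5 libraries, and the 4 immune and 4 epithelial markers had no row.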

How the data were processed

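Poly-A selected RNA of 3 si-SCR and 2 si-circVAMP3 libraries was analysed from the FPKM values deposited by the authors. Per the submitters' notes and the study's methods, reads were trimmed with Trimmomatic, aligned to GRCh38 with Ensembl 99 annotation by STAR 2.5.2b and counted with HTSeq, and the authors used edgeR and kept genes above 1 CPM in at least 3 samples. Here FPKM was tested as log2(FPKM + 0.1) with limma 3.58.1 (trend, R 4.3.3), for 13681 genes with a mean of at least 0.1 FPKM, with Benjamini-Hochberg adjustment and no pairing. Whole fragments were estimated from ratios of FPKM values, written as fractions of whole numbers. Such fractions can match almost any ratio closely, so the 100.0% found whole within a relative tolerance of 1e-10 does not test the recovery. For 488 genes, 2 of them in the lists used here, a shared divisor was restored from the exon length. Coordinates are from GENCODE release 44, a later annotation of the same build. The named genes were all members, VAMP3, every called gene of each list (at most 6, by size of change), otherwise its 3 most abundant, and the 5 genes most correlated with the member of lowest p. Members and lists were chosen with earlier results of these data known. Genes listed without a row were not analysed here, and 1 called gene of the glycosylation list is not reported here.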

Additional observations from a re-analysis of the deposited data

How the results depend on the processing

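Over 15 alternatives (14 planned, with other pseudocounts, filters, scalings and variance models, a replicate block and each library left out, and limma-voom on recovered fragments, which alone was chosen after seeing the data), DAG1, SGCB and SNTB1 kept their calls, with highest adjusted p-values of 0.0479, 0.0202 and 0.0438. Leaving out each library gave 1267 to 4014 called genes, 557 to 842 past the fold cutoff and 3 to 5 called members, with fewer samples in each such fit. A pseudocount of 1 FPKM left 334 genes past the fold cutoff. The members' median log2 fold change was −0.26 with that pseudocount, −0.24 at a mean of at least 1 FPKM, where SGCD was not tested, and −0.37 with median centring. SGCA changed sign without si-SCR replicate 1 (0.068) and without si-circVAMP3 replicate 2 (0.002), ranging from −0.12 to 0.068. The UTRN to DMD ratio changed sign without si-SCR replicate 2 (0.022) or 3 (0.001) or si-circVAMP3 replicate 2 (0.010), ranging from −0.037 to 0.022. DMD was called higher with voom (adjusted p = 0.0272), for 6 called members, in a fit that called 30.9% of all genes. The cause was not tested. No pairing by replicate number was seen (r of deviations −0.088 and −0.016). With 2 si-circVAMP3 libraries their deviations mirror each other, so these values cannot decide whether the samples were paired. The replicate block, which also drops si-SCR replicate 3 since it has no partner, called 2868 genes and 4 members, against 4014 and 5 without that library and with no block. Under the block 4 of 9 myogenic markers were called lower, against 21.0% of all genes called in that fit (5 markers and 29.3% without that library and with no block). COL3A1 was also called under the block (adjusted p = 0.0415), and DTNA (−0.41, adjusted p = 0.0585), DYSF (0.0588), SNTG1 (0.0510) and CAMK2D (0.103) were not.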
